A study of Homo sapiens with 16 samples.

Results

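The 9 signalling phosphatases described here are PTPRC, PTPN2, PTPN6, PTPN7 and PTPN22, which are protein tyrosine phosphatases, and DUSP4, DUSP5, DUSP6 and DUSP10, which are dual-specificity phosphatases of MAP kinases. They were chosen by gene symbol from the 19738 genes that the arrays measured, and each is read from its brightest probe set on average, among those that name no other gene. All 9 were measured, and all 9 were among the 13295 genes that passed the filter on low values (the 3rd highest value above the median of the whole table). Total RNA came from 16 established human T-ALL lines, that is, lines grown from patients' acute lymphoblastic leukemia of the T-cell lineage: ALL-SIL, CCRF-CEM, DU528, HSB-2, JURKAT, KOPT-K1, LOUCY, MOLT-16, MOLT-4, P12-ICHIKAWA, PEER, PF-382, SKW-3, SUP-T11, SUP-T13 and TALL-1. Each line was grown untreated for 24 hours and hybridised to its own Affymetrix U133 Plus 2.0 array. The lines form 1 group with 1 array per line, and no label says how many cultures an array pools, so values stand without a replicate error, and each SD or correlation describes different lines.

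Signals from the T-cell receptor, cytokine receptors and RAS run through kinases that add phosphate groups, and phosphatases take them off again. CD45 (encoded by PTPRC) removes the inhibitory phosphate of the kinase LCK, while PTPN22, PTPN6 and PTPN2 act on activated kinases of antigen and cytokine receptors and on STAT proteins. The dual-specificity phosphatases and PTPN7 remove phosphate from the MAP kinases ERK, p38 or JNK, and several DUSP genes are themselves switched on by ERK, so that their RNA serves as a readout of that pathway. PTPN2 is deleted in some human T-ALL.

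Intensities are linear, as deposited, and the table median was 42.4; a gene is called expressed in a line at or above 4 times that median (169). SDs, ranges and gaps are in units of log2(intensity + 16). Array medians ran from 37.6 in MOLT-16 to 45.0 in LOUCY, and the SD over arrays of 18 hybridisation spikes was 0.14 in the median and at most 0.19, which is the only technical error the arrays give. The 3′ over 5′ signal of the ACTB control probe sets, which rises as RNA degrades, ran from 1.44 in DU528 to 2.03 in MOLT-4. The same ratio of the GAPDH control probe sets ran only from 0.90 to 1.05, and it was not set beside the members. Of 10 T-lineage markers, 7 were expressed in all 16 lines, among them CD3D (7095 to 14179) and TRBC1. CD3G and BCL11B were lowest in DU528, where CD2 and CD5 were below the table median, as they were in LOUCY and MOLT-16. Among markers of other cells, 4 of 6 myeloid, 2 of 6 B-cell and 5 of 8 stromal and epithelial genes were expressed in no line, and the summed intensity ran from 104 to 492 for the myeloid list and from 327 to 4573 for the stromal and epithelial list. DU528 held the top of both ranges, through LYZ (385) and PECAM1 (4303), and LOUCY the top of the B-cell list (345 to 2367). Of the B-cell list, CD79A was expressed in all 16 lines (215 to 411), BLK in 6, CD79B in 4 and EBF1 in 1. PECAM1 was expressed in 12 of the 16 lines, so it was not particular to DU528. The part of these marker genes in the results below was not tested. In bulk RNA, fewer cells that make a transcript and less of it per cell cannot be told apart.

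Promoter sequences are shown for the members that varied most between lines or had a line set apart, and DUSP6 is known to be induced by ERK through ETS factors. They come from RefSeq (GRCh38.p14) and hold 300 bases, 250 before and 50 after the transcript start, written in the direction of the gene. Of the 9 members, 7 matched an entry there; DUSP4 and DUSP5 are named only. Capitals mark every GGAA or TTCC, which is the core recognised by ETS factors on either strand.
DUSP6 (chr12:89352452-89352751, minus strand): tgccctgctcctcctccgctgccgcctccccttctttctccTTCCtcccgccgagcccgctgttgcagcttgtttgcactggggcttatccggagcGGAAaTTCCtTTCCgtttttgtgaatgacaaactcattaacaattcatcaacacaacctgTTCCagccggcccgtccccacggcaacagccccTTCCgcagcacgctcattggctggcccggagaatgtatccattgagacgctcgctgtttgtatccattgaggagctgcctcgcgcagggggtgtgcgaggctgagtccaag
DUSP10, first start (chr1:221742040-221742339, minus strand): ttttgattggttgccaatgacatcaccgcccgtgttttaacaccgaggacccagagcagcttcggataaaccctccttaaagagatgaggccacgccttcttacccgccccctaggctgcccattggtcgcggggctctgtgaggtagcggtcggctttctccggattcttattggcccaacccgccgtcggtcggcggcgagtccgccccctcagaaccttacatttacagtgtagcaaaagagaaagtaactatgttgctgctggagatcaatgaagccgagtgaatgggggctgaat
PTPN6, first start (chr12:6946327-6946626, plus strand): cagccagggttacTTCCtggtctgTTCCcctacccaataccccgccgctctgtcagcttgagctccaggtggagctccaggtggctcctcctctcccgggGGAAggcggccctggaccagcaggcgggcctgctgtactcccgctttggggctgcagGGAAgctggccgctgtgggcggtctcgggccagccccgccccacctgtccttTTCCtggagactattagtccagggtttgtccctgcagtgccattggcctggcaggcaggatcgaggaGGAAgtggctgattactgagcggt
PTPN6, second start (chr12:6951106-6951405, plus strand): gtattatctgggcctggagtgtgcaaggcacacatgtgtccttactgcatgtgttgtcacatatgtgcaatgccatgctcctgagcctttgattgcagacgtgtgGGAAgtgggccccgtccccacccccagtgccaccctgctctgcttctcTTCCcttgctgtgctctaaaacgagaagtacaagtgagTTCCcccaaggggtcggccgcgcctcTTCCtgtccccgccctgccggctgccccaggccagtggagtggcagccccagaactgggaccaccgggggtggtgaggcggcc

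The DUSP6 window held 6 ETS cores, of which 1 lay in the longer form CGGAAG, and 19 CpG dinucleotides. Among 35116 RefSeq promoters of the same length, 95.45% held at least 1 core on either strand, with a median of 3, and 16.1% held at least as many as DUSP6. CGGAAG was in 19.5% of them, and the median number of CpG was 14. Windows not shown held more cores than DUSP6: PTPN2 had 8 (at least as many in 3.8% of promoters) and the second start of PTPN7 had 7 (8.3%). The first DUSP10 window had 0 cores and 19 CpG, the window at its second start, not shown, had 3 cores and 8 CpG, and the PTPN6 windows had 6 and 4 cores with 12 and 10 CpG. No window of the 7 members held the AP-1 motif TGANTCA, which 7.71% of all promoters have. The PTPN22 window held the RUNX motif TGTGGT 3 times on either strand, against 13.1% of promoters with any. A match describes letters and is not evidence of binding.

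DUSP6 was the member that varied most. It encodes a cytoplasmic phosphatase of ERK and is a classical feedback gene of that pathway. HSB-2 had an intensity of 10799, ALL-SIL 9112 and KOPT-K1 5056, against a median of 662 over the 16 lines and the lowest values of 161 in MOLT-16, 86.8 in JURKAT and 48.5 in SUP-T11. The SD between lines was 2.18. The same 3 lines therefore stood at the top, and 13 of 16 expressed the gene, while SUP-T11 lay near the table median. The lines were spread without a clear break: the widest gap, between KOPT-K1 and DU528 (2141), was 1.23 and covered 16.7% of the range, and only 2 of the 15 gaps between neighbours were smaller than 0.19. All 3 DUSP6 probe sets gave the same picture, with r of at least 0.998 over the 16 lines.

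DUSP4, which encodes a nuclear phosphatase of ERK and other MAP kinases, was expressed in only 3 lines. Its intensity was 735 in SUP-T11, 377 in DU528 and 376 in HSB-2. It was 68.2 in SKW-3 and below the table median in 11 lines, down to 4.2 in CCRF-CEM, where an order has no meaning. The gap between HSB-2 and SKW-3 was 2.22 (SD over all lines 1.69), and the other DUSP4 probe sets read the same 3 lines as the only ones expressing it (r = 0.97 and 0.996 with the one used). SUP-T11 thus held the highest DUSP4 and the lowest DUSP6 of the 16 lines.

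DUSP5, another nuclear phosphatase specific for ERK, was expressed in DU528 (421) and LOUCY (348). The next lines, KOPT-K1 with 127 and HSB-2 with 114, lay 1.35 or more below LOUCY, the median was 38.1, and 8 lines were below the table median. Its SD was 1.16 with all lines and 0.96 without DU528. Only 1 probe set reports DUSP5.

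DUSP10, whose product prefers p38 and JNK over ERK, was highest in LOUCY (1518) and DU528 (1212). SUP-T13 (639), PEER (522) and SKW-3 (519) followed, the median was 153, and ALL-SIL had 45.9 and SUP-T11 14.9. A gap of 1.18 separated the top 5 lines from P12-ICHIKAWA (220.2), and SUP-T11 stood apart at the bottom, by at least 1, from ALL-SIL. The SD was 1.57. ALL-SIL, which was second for DUSP6, was therefore second lowest for DUSP10.

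**Figure D1:**
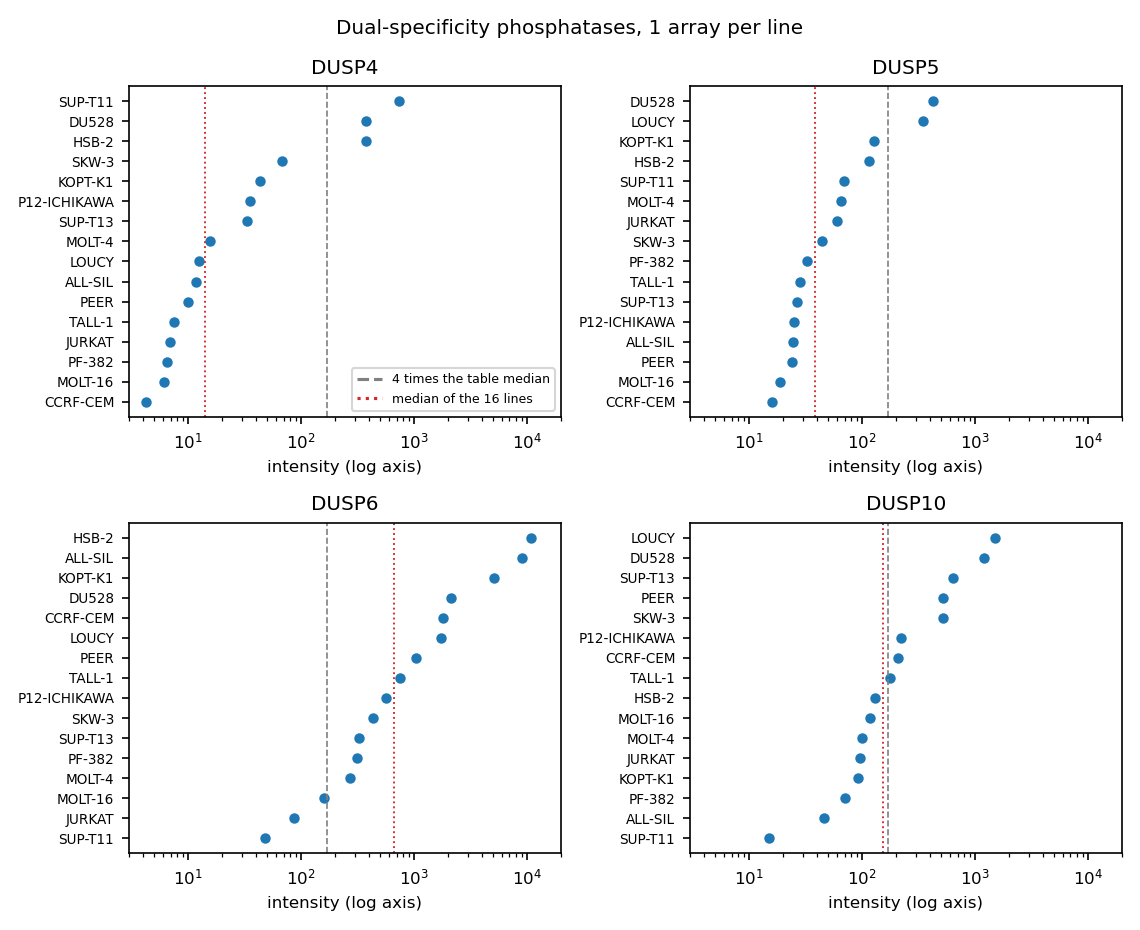
Intensity (log axis) of DUSP4, DUSP5, DUSP6 and DUSP10 in each of 16 T-ALL lines, 1 point per line and array, sorted within each panel; the dashed line marks 4 times the table median (169) and the dotted line the median of the lines. DUSP4 crosses the dashed line in 3 lines and DUSP5 in 2, against 13 for DUSP6 and 8 for DUSP10.

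Among the tyrosine phosphatases, PTPN6 had the widest range. It encodes SHP-1, an inhibitory phosphatase of blood cells that carries SH2 domains. Its intensity was 4545 in DU528, 1538 in LOUCY and 1113 in JURKAT, with a median of 760.4, 360.2 in SUP-T11 and 87.1 in P12-ICHIKAWA. Both ends were set apart: DU528 lay 1.55 above the next line and P12-ICHIKAWA 1.87 below the next, and P12-ICHIKAWA was the only line that did not express the gene. The SD of 1.15 became 0.93 without DU528 and 0.92 without P12-ICHIKAWA. Only 1 probe set reports PTPN6.

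PTPN2, a phosphatase of JAK1, JAK3 and STAT proteins, separated the lines into 2 levels. It was 1147 in DU528, 1434 in HSB-2, 1567 in LOUCY, 1576 in MOLT-4 and 1588 in SUP-T13. The other 11 lines lay between 2602 in SUP-T11 and 3598 in CCRF-CEM. The gap between SUP-T11 and SUP-T13 was 0.71, or 43.2% of the whole range, and of the 15 gaps 12 were below 0.19, so that most neighbours within each level cannot be put in order. A second bright probe set of PTPN2 also read DU528 lowest and CCRF-CEM highest (940.0 and 2954, r = 0.98), while the mean of all 7 probe sets, several of them dim, gave an SD of 0.33 in place of 0.54. PTPN2 was expressed in all 16 lines.

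PTPRC, the pan-leukocyte antigen gene, was expressed in all 16 lines. It was 10644 in SUP-T13, 9634 in SUP-T11 and 8380.0 in LOUCY, with a median of 4657, 2234 in TALL-1 and 1242 in PF-382. PF-382 lay 0.84 below TALL-1, the widest gap, and the SD was 0.87. The other bright PTPRC probe sets had PF-382 lowest and SUP-T13 highest as well (r = 0.99 for each).

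PTPN7, a phosphatase of ERK and p38 found in blood cells, ran from 2505 in DU528, 2306 in SUP-T13 and 2158 in LOUCY through a median of 1272 to 454 in MOLT-4, 439 in PF-382 and 421 in SUP-T11. The 3 lowest lines were separated from the rest by 0.68, more than any other gap (SD 0.83). PTPN22, which dephosphorylates LCK and ZAP70, was 1426 in SUP-T13 and 1243 in DU528, then 724 in CCRF-CEM, with a median of 506. It was 198 in TALL-1 and 170.2 in HSB-2, and the gap of 0.77 below DU528 was the widest (SD 0.82). By these probe sets both genes were expressed in all 16 lines, PTPN22 only just in HSB-2. Their other probe sets passed the threshold in 10 lines for PTPN7 and in 13, 5 and 0 lines for PTPN22. The second brightest of PTPN22 was lowest in PF-382 (143), not in HSB-2 (r = 0.895 with the one used).

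**Figure D2:**
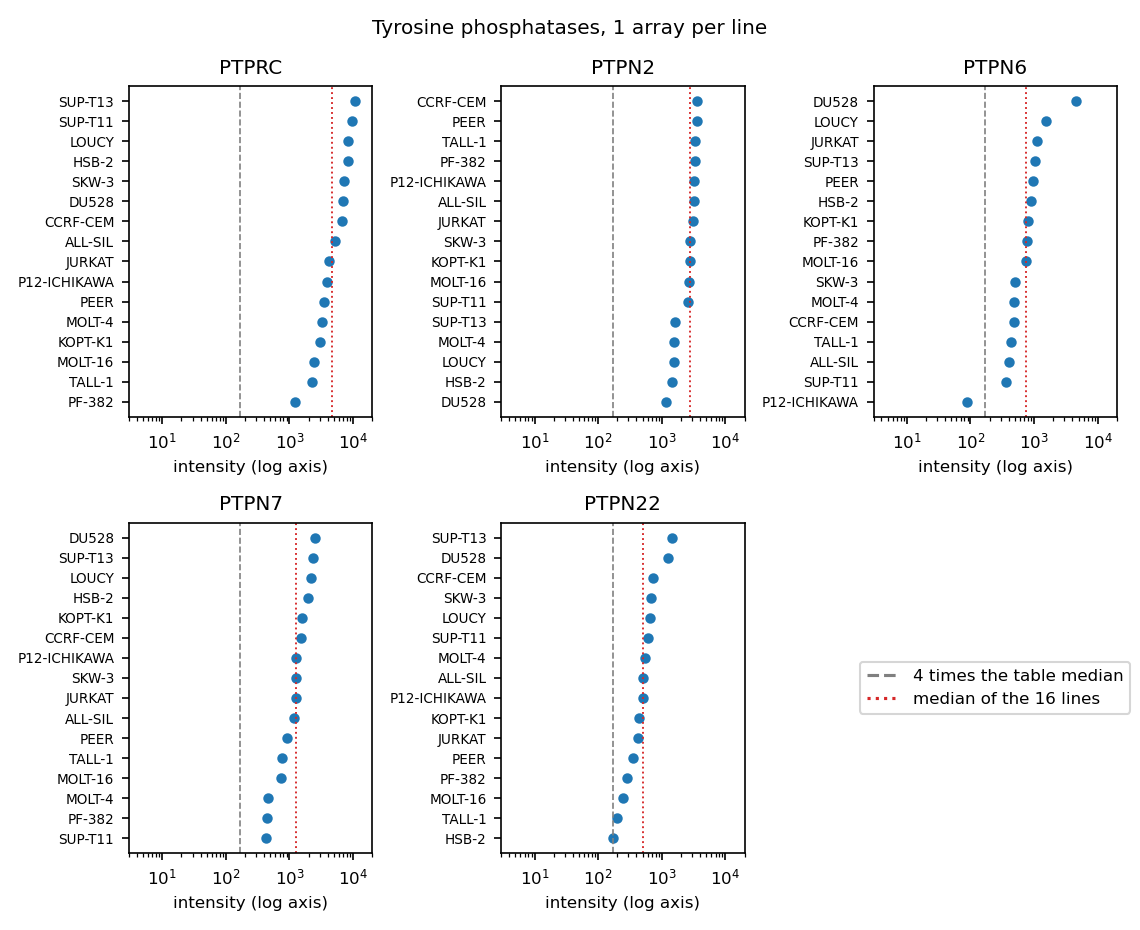
Intensity (log axis) of PTPRC, PTPN2, PTPN6, PTPN7 and PTPN22 in each of 16 T-ALL lines, 1 point per line and array, sorted within each panel, with the same dashed and dotted lines (4 times the table median and median of the lines). PTPN2 shows 5 lines between 1147 and 1588 and 11 between 2602 and 3598, and PTPN6 has DU528 set apart high and P12-ICHIKAWA set apart low.

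Of the 9 members, 5 (PTPN6, DUSP4, DUSP5, DUSP6 and DUSP10) had an SD above 1, against 17.8% of all genes past the filter. The median SD was 1.15 for the members and 0.41 for those genes. Since the members were chosen with earlier results of these data known, the comparison describes them and tests nothing. Without DU528 the count was 3, since PTPN6 and DUSP5 were then under 1. PTPN6 was the only member with a line at least 1 above all others, a pattern seen in 5.36% of genes, and PTPN6 and DUSP10 had a line at least 1 below all others, as had 5.57% of genes. For DUSP10 the gap was only just past 1, with SUP-T11 below the table median. Among 20 other classical tyrosine phosphatases past the filter, 11 had an SD above 1; PTPN3 ran from 8.0 in SUP-T11 to 3671 in PEER and PTPRK from 6.2 in LOUCY to 1663 in PF-382, while the widely used PTPN11 and PTPN1 (both outside the rule for named genes) stayed within 2726 to 5985 and 1063 to 1862. Of 7 other MAP kinase phosphatases only DUSP1, an early-response gene, had an SD above 1, from 5.4 in ALL-SIL to 647 in LOUCY. DUSP14 shared its top lines, DU528 (2754) and LOUCY (1667), with DUSP5 and DUSP10, and DUSP2 was highest in PF-382 (2206) and lowest in SUP-T11 (188).

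Read by line, DU528 was among the 3 highest lines for 6 members and had the lowest PTPN2. LOUCY was in the top 3 for 5 members and SUP-T13 for 4. How often these lines rank so among all genes was not counted, so the counts describe the members only. SUP-T11 was in the lowest 3 for PTPN6, PTPN7, DUSP6 and DUSP10, MOLT-16 for PTPRC, PTPN22 and DUSP6, and PF-382 for PTPRC, PTPN7 and DUSP10; DUSP4 and DUSP5, below the table median in many lines, are left out of this. SUP-T11 joined the lowest PTPN7, DUSP6 and DUSP10 to the highest DUSP4 and the second highest PTPRC, and of all lines it had the lowest median correlation with the other arrays (0.859, highest 0.897 in SKW-3). DU528, LOUCY and SUP-T13 also had the 3 lowest ACTB ratios (1.44, 1.45 and 1.45).

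**Figure D3:**
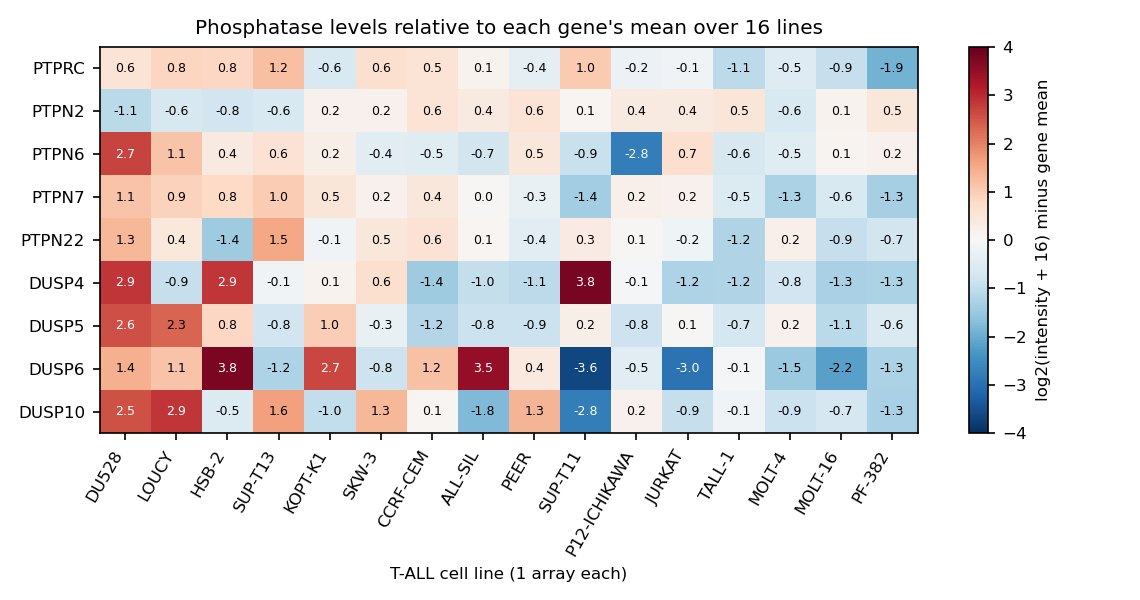
Level of the 9 phosphatases in 16 T-ALL lines as log2(intensity + 16) minus the gene's mean over lines (red above, blue below), 1 array per line, with lines ordered by their mean over the members. DU528 and LOUCY are red in most rows and blue for PTPN2, and SUP-T11 is red for DUSP4 and blue for DUSP6 and DUSP10.

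Correlations over the 16 lines are given as descriptions without a p, since all members were read from the same arrays with the same scaling. Of the 36 pairs of members, 26 were positive, with a median r of 0.23. PTPN2 was negative with all 8 others (r = -0.73 with DUSP5 to -0.19 with DUSP6), while 26 of the 28 pairs without it were positive. The highest were PTPN7 with DUSP10 (r = 0.67, rho = 0.67) and PTPN6 with DUSP5 (r = 0.65, and 0.44 without DU528). DUSP4 and DUSP6 had an r of 0.07 with SUP-T11 and 0.47 without it. DUSP4 was below the table median in 11 lines and DUSP5 in 8, where values have no order. Every r with either gene carries that limit. The ACTB ratio had an r of -0.72 with PTPRC, -0.62 with PTPN7, -0.62 with DUSP10 and 0.38 with PTPN2; the part of RNA integrity in the member pairs was not tested.

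Whether other genes moved with a phosphatase was tested for PTPRC, PTPN2, PTPN6 and DUSP6. limma fitted the slope of each of 13294 genes on the member's log2 level over the 16 lines, with two-sided p-values adjusted by Benjamini-Hochberg over all genes. With PTPRC, 6 genes rose (0.0451% of those tested) and none fell (0%), and 1341 had an unadjusted p below 0.05. They were CD52 and SH3BGRL3 (adjusted p = 0.0167 for both) and RAC2, NLRC3, QTGAL and CYTH4 (adjusted p = 0.0489 for all 4).

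CD52, a small surface glycoprotein of lymphocytes and the target of alemtuzumab, was 10816 in SUP-T11, 8030.4 in HSB-2, 6474 in SUP-T13 and 5902 in LOUCY, the 4 lines with the highest PTPRC. Its median was 515, and it was 116 in PF-382, 87.8 in TALL-1 and 87.0 in MOLT-16, the 3 lines with the lowest PTPRC. MOLT-4 also had a low CD52 (98.5), although its PTPRC of 3265 lay above that of 4 lines. Its slope was 2.40 ± 0.33 (SE) log2 units per log2 unit of PTPRC. SH3BGRL3 ran from 516 in PF-382 to 5751 in HSB-2 with a slope of 1.02 ± 0.14. RAC2, the blood-cell GTPase of the RAC family, ran from 2934 in PF-382 to 9654 in SUP-T13 with a slope of 0.50 ± 0.08. PTPRC, RAC2 and SH3BGRL3 thus shared their lowest line.

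None of the 6 passed once the ACTB ratio, which moved with PTPRC, was a covariate, and none without SUP-T11, SUP-T13 or TALL-1. In the list of 15 receptor-proximal T-cell genes, 0 passed with PTPRC and 12 had a positive slope (median r 0.25, against 0.01 over all genes). Its widest genes were UBASH3B, PAG1, RASGRP1 and UBASH3A. RASGRP1, an activator of RAS, reached 10418 in SUP-T11 and 7085 in SUP-T13, the lines with the highest PTPRC, and 112 in MOLT-16 (slope 1.23, adjusted p = 0.324). CSK, the kinase that places the phosphate which CD45 removes from LCK, and PTPRCAP, a partner protein of CD45, are outside the rule for named genes and were picked after their values were seen. CSK had a slope of 0.43 (r = 0.81, adjusted p = 0.0973; it passed with PTPRC taken as a rank) and PTPRCAP one of 0.52 (r = 0.76, adjusted p = 0.124), while LCK itself had 0.07 (r = 0.07, adjusted p = 0.952).

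**Figure D4:**
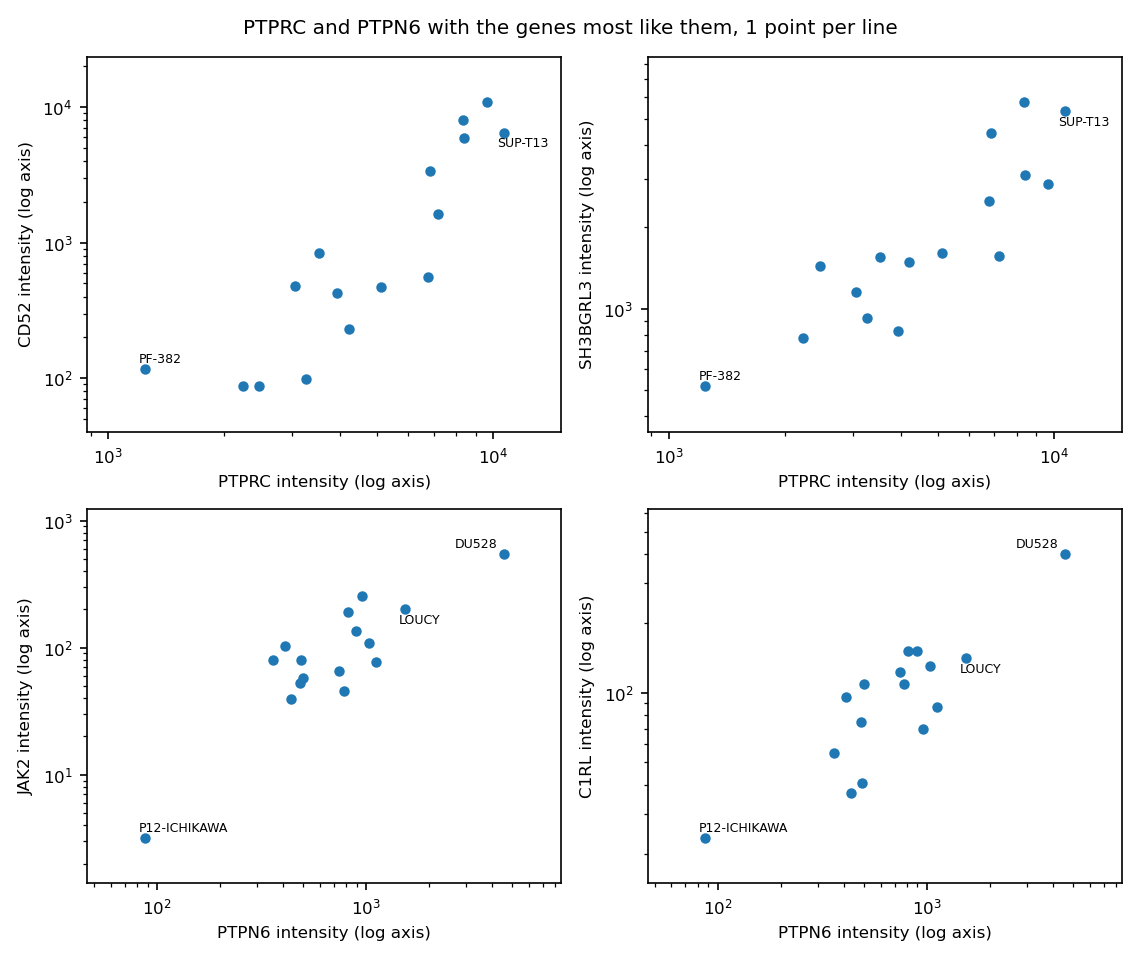
Upper panels: PTPRC against CD52 and SH3BGRL3, both of which passed the limma test; lower panels: PTPN6 against JAK2 and C1RL, neither of which did. Each point is 1 of 16 lines on log axes; DU528 and P12-ICHIKAWA lie at the 2 ends of both lower panels.

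With PTPN6, PTPN2 and DUSP6, limma called 0 genes in either direction (0% of 13294), although 1768, 1639 and 1141 genes had an unadjusted p below 0.05. These counts of 0 do not show that no gene followed a member. On simulated data, slopes of 0.5 were recovered in 7% of cases for PTPN2, against 88.5% for DUSP6. A slope is per log2 unit of the member, and the SD was 0.54 for PTPN2 and 2.18 for DUSP6. The planted genes were drawn at random from all genes past the filter, whose median SD was 0.41. For genes that cytokine receptors induce, set beside DUSP6 below, the median SD was 1.93, so the recovery does not hold for them. The gene closest to PTPN6 was JAK2, a cytokine receptor kinase on which SHP-1 acts. JAK2 was 547 in DU528 and 257 in PEER, its median was 80.6, and it was 3.2 in P12-ICHIKAWA, the line with the lowest PTPN6. The slope was 0.83 ± 0.13 (SE) and the adjusted p 0.0805 (r = 0.86, rho = 0.67, and r = 0.78 without P12-ICHIKAWA). Only 4 lines expressed JAK2, and its value in P12-ICHIKAWA was below the table median. C1RL came next (slope 0.60 ± 0.10, adjusted p = 0.0872). It was 23.5 in P12-ICHIKAWA and highest, at 400.1, in DU528, the only line expressing it. Without DU528 the limma adjusted p was 0.277 for JAK2 and for C1RL. C1RL is the fifth gene past the filter from PTPN6 along its chromosome, and of the 10 nearest such genes 8 had a positive r, with a median of 0.31. All 7 measured cytokine receptor kinases and STATs had a positive slope on PTPN6, with 0 past the test. Their median r was 0.44, against 0.06 over all genes. The mean of that list had an r of 0.65 with PTPN6, and 0.47 without DU528. Without P12-ICHIKAWA, 23 genes rose with PTPN6 and 24 fell, among them EGR3 rising and BCL11B falling.

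With PTPN2, all 7 receptor kinases and STATs had a negative slope, again with 0 past the test. Their median r was -0.50, against -0.03 over all genes. The mean of that list had an r of -0.67 with PTPN2, and -0.54 without DU528. DU528 had both the lowest PTPN2 and the highest PTPN6, so these slopes and those on PTPN6 share an end line. STAT5A was 5431 in DU528 and 31.6 in SUP-T11 (slope -1.94, adjusted p = 0.323), and STAT3 was 4470.1 in DU528 and 406 in SUP-T11 (slope -1.05, adjusted p = 0.173). SPRY2, an ERK feedback inhibitor, was 1445 in LOUCY, 1023 in DU528 and 899 in HSB-2, all of them lines with low PTPN2 (slope -2.62, r = -0.71, adjusted p = 0.162). The 5 low-PTPN2 lines were not alike in it: SPRY2 was 361 in SUP-T13 and 87.2 in MOLT-4. Leaving out MOLT-4 gave 26 genes that rose and 107 that fell with PTPN2, SPRY2 among those that fell, so that 1 line decided the count. Of the 10 genes nearest to PTPN2 on its chromosome, picked for this look after values were seen, 8 had a positive r with it; the next gene, SEH1L, had 0.73, and the median was 0.12.

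DUSP6 was set beside the other genes that ERK is known to induce. Of the 12 past the filter, 8 had an SD above 1, 0 passed with DUSP6 and 9 had a positive slope, with a median r of 0.20 (0.03 over all genes). The widest genes of this list did not share its whole order. SPRY2 was 19.9 in ALL-SIL and 11.6 in KOPT-K1, which followed HSB-2 in DUSP6, and 899 in HSB-2. IER3 shared part of the order, with its highest value in HSB-2 (2019). It was 448 in ALL-SIL, 434 in KOPT-K1 and 37.8 in SUP-T11, against a median of 253. Its lowest value, 22.9, was in DU528, where DUSP6 was above its median. SPRY1 was highest in LOUCY (1372). FOS reached 752 in DU528, the only line expressing it, and was below the table median in most lines, ALL-SIL and KOPT-K1 included (median 12.8). The mean of the list had an r of 0.31 with DUSP6 (0.08 without HSB-2, 0.64 without ALL-SIL and 0.47 without both). With DUSP5 its r was 0.55, 0.44 without DU528 and 0.35 without DU528 and LOUCY, the only lines expressing DUSP5.

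Genes that cytokine receptors induce through STAT5 were set beside DUSP6 in the same way. CISH, an inhibitor of STAT5 signalling, had 5856 in HSB-2, 5513 in KOPT-K1 and 5436 in ALL-SIL, the top 3 lines of DUSP6, and its lowest value in SUP-T11, as DUSP6 had. Of its 8 list genes 0 passed with DUSP6, and 7 had a positive slope with a median r of 0.62. SOCS1 had a slope of 0.75 ± 0.18 (SE; r = 0.73, adjusted p = 0.376), CISH one of 0.74 ± 0.19 (r = 0.70, adjusted p = 0.422) and PIM1 one of 0.72 ± 0.20 (r = 0.67, adjusted p = 0.422). The mean of the list had an r of 0.73 with DUSP6, between 0.64 and 0.83 when any 1 line was left out, and of 0.53 without HSB-2 and ALL-SIL; rho was 0.52. Without those lines the r of the ERK and cytokine lists with DUSP6 were therefore close, and their difference was not tested. SUP-T13 departed from this, with 3735 for CISH and 4540.4 for PIM1 but 325 for DUSP6. The other 8 members had an r with the list between -0.35 for PTPN2 and 0.55 for PTPN7. No gene of any list passed these fits on the log2 level of PTPRC, PTPN2, PTPN6 or DUSP6, the 7 measured MAP kinases and their kinases included.

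**Figure D5:**
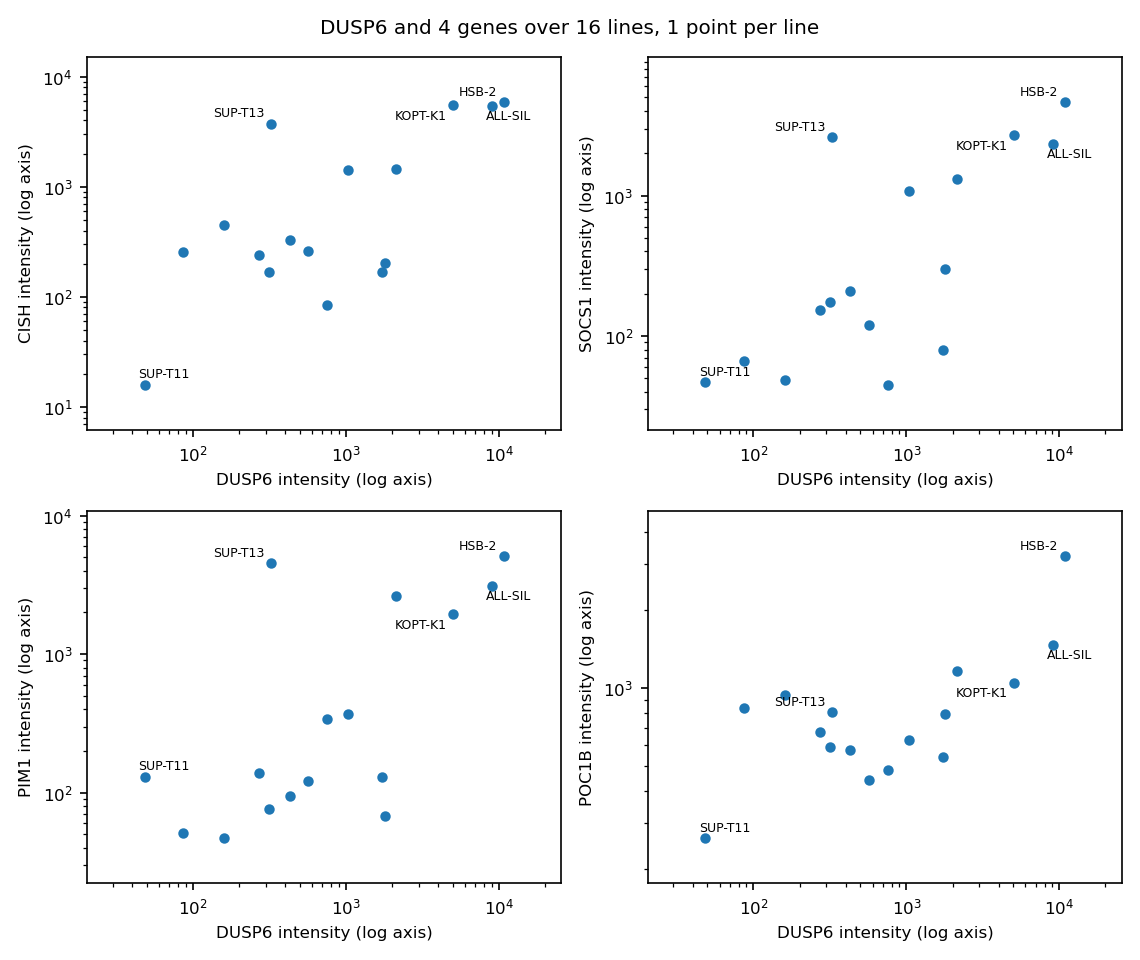
DUSP6 against CISH, SOCS1, PIM1 and POC1B, 1 point for each of 16 lines on log axes. HSB-2, ALL-SIL and KOPT-K1 lie at the upper right of the first 3 panels, and SUP-T13 has high CISH, SOCS1 and PIM1 with a DUSP6 of 325.

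The next gene past the filter beside DUSP6 on chromosome 12 is POC1B, which is outside the rule for named genes. It was 3233 in HSB-2 and 1467 in ALL-SIL, its median was 734, and its lowest value, 262, was in SUP-T11 (r = 0.69), so that it shared both end lines and the second highest line with DUSP6. Beside DUSP4, SARAF had an r of 0.68 and its highest value (9998) in SUP-T11. These neighbours were looked at after values were seen, and over the 10 nearest genes the median r was 0.21 for DUSP6 and 0.09 for DUSP4.

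The genes most like each member were ranked by Pearson's r over the 16 lines among 4647 or 4648 genes with a range of at least 2, which describes these arrays only. For DUSP6 they were TXK, a T-cell kinase of the TEC family (r = 0.83, highest in ALL-SIL with 322), GAB2, a signalling adaptor (r = 0.79, highest in ALL-SIL with 4174) and PLEKHO1. For DUSP10 they were TMEM164, SRGAP3 and the ETS factor ELF1 (r = 0.85; 5646 in LOUCY and 573 in SUP-T11). TNFAIP8L2, STK10 and GJD3 led for DUSP4, and STK10, a kinase of lymphocytes, was highest in SUP-T11 (2473) and HSB-2 (1892). TMEM62, HDC and IGFBP7 led for DUSP5, the last 2 through DU528, LOUCY and HSB-2 (5353, 1250.2 and 382 for HDC).

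For PTPN7 the closest were ACAP1, MACF1 and the chemokine receptor CXCR3 (r = 0.88), which was 1113 in HSB-2, 1028 in SUP-T13 and 625 in DU528 and 3.2 in MOLT-4. STAP1, an adaptor, GRAMD2A and EVI2A were closest to PTPN22 (r of 0.74, 0.72 and 0.71). PTPRC had CD52, SH3BGRL3 and QTGAL, PTPN6 had JAK2, C1RL and HPS1, and PTPN2 had ZNF678, DPH5-DT and BTBD2 (r = 0.84, 0.79 and 0.78). ZNF678 was 149 in DU528, which also had the lowest PTPN2.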

How the data were processed

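Total RNA of 16 T-ALL cell lines was measured on 1 array each. The authors deposited intensities per probe set, linear by their range. Which program, background correction and scaling made them is not given in the sources used here. Values were analysed as log2(intensity + 16) without further normalization. Of 54675 probe sets, 41097 were listed with 1 gene, 1801 with several and 11777, 62 controls among them, with none; 41048 matched a RefSeq symbol. No value column was left out, and 0 pairs of arrays were mostly identical.

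Slopes were fitted in R 4.3.3 by limma 3.58.1, with robust and trended eBayes, over 13294 genes, with calls at an adjusted p below 0.05. The method was tested on simulated data, with slopes planted in 200 genes drawn at random and independent noise between genes. A slope of 0.5 was recovered in 7% of them for PTPN2, 43% for PTPRC, 68.5% for PTPN6 and 88.5% for DUSP6. At a slope of 1 it was 62.5%, 81%, 88% and 96.5%. Levels, correlations and figures were made in Python 3.11.15 (pandas 2.3.3, numpy 2.4.6, matplotlib 3.10.9). Named genes are the members, at most the 4 widest of each list and those called, the 3 most like each member, and the 10 smallest p per direction; exceptions are stated. Members and lists were chosen with earlier results of these data known. Alternatives changed the pseudocount to 64, the normalization, probe set, filter, scale of the driver, ACTB covariate and lines used.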

Additional observations from a re-analysis of the deposited data

How the results depend on the processing

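The 6 genes that passed with PTPRC became 2 with log2(intensity + 64), with quantile normalization or without the filter, 14 with PTPRC taken as a rank (11 rising and 3 falling, 5 of them among the 6, and CSK among those rising), and 0 with the ACTB ratio as a covariate. Leaving out 1 line at a time gave 0 to 8 genes for PTPRC, 0 to 133 for PTPN2 (133 without MOLT-4), 0 to 47 for PTPN6 (47 without P12-ICHIKAWA, and JAK2 alone without PF-382) and 0 to 1 for DUSP6. CD52 and SH3BGRL3 were the 2 genes kept with the larger pseudocount and with quantile normalization. The count of members with an SD above 1 was 3 to 5 with 1 line left out (3 without DU528), 4 with log2(intensity + 64) and 6 with each gene's most variable probe set. With 1 array per line, no difference between 2 lines could be tested, and values below the table median have no order. No paired analysis was possible because all lines form 1 group.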
